A study of Mus musculus with 12 samples.

Results

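The 10 genes described here mark alveolar type 1 cells, and their RNA was followed across cultures of MLE12 cells after lentiviral shRNA against 1 of a pair of long noncoding RNAs. They were Ager, Pdpn, Gprc5a, Clic5, Clic3, Cav1, Emp2, Hopx, Rtkn2 and Akap5, taken as known markers of that cell type. Their rows were those of the array table whose platform annotation gives exactly 1 symbol and that symbol is 1 of the 10. This gave 12 rows for 10 genes, of 41345 rows and 22180 named genes in all, with 3 rows for Rtkn2 and 1 row for each of the other 9 genes. The brightest row, by its mean over all 12 arrays, stands for a gene.

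MLE12 is an epithelial line from mouse distal lung, immortalized by the SV40 large T antigen, so it is 1 cultured line and not a sorted alveolar cell type. The groups were MLE12 cells with shRNA against NANCI, MLE12 cells with the scrambled shRNA run beside it, MLE12 cells with shRNA against LL34, and MLE12 cells with the scrambled shRNA run beside that one, with 3 arrays in each. All 4 groups were infected at 60% confluency for 12 hours with lentivirus that carried a pLKO.1 construct and was produced by HEK-293T, a line of human embryonic kidney cells, and all were then subcultured for 65 hours. For each array 100 ng of total RNA was primed with poly(T), amplified and hybridized to an Affymetrix array. The replicates are labelled biological, but the labels do not say whether they were separate infections, so the p-values take in only how these arrays vary, which may be technical. RNA was measured in bulk, and fewer cells of a type and less RNA per cell cannot be told apart.

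Alveolar type 1 cells are the thin, flat cells that cover most of the gas exchange surface of the lung. They are known for membrane proteins such as Ager and Pdpn, for abundant caveolae built with Cav1, and for large, flattened cytoplasm held by the actin cytoskeleton. The homeobox factor Nkx2-1 marks lung epithelium and takes part in type 1 cell identity, beside the Hippo pathway effectors Yap1 and Wwtr1 (TAZ), which act on DNA through TEAD factors. NANCI lies beside Nkx2-1 in the genome. The comparison with scrambled shRNA gives the genes whose RNA changed after shRNA against NANCI.

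Promoter sequences of RefSeq on the mouse build GRCm38.p6, from 250 bases before to 50 bases after a gene's start, were held for 8 of the 10 genes (all but Rtkn2 and Gprc5a), in 10 windows. The core CTCAAG, or CTTGAG on the other strand, which Nkx2-1 is known to bind, was searched on both strands. It lay in 2 of the 10 windows, both of Hopx, whereas 15.9% of the 32851 mouse promoter windows hold it. The TEAD core GGAATG, or CATTCC on the other strand, lay in 0 of the 10 windows, against 14.7% of all windows. Neither core contains the other, and a match is a description of the letters only. Shown first are the Hopx windows, both read on the minus strand, with the Nkx2-1 core in capitals. The core begins at position 36 after the start in chr5:77095218-77095517 and at position -112 in chr5:77115074-77115373.
Hopx, chr5:77095218-77095517, minus strand: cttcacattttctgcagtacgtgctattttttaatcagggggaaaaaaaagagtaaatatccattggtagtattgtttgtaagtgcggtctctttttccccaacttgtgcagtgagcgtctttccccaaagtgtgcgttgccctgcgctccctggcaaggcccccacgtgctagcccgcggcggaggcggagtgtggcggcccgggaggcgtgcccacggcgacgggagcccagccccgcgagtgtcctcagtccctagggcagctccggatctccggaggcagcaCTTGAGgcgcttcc
Hopx, chr5:77115074-77115373, minus strand: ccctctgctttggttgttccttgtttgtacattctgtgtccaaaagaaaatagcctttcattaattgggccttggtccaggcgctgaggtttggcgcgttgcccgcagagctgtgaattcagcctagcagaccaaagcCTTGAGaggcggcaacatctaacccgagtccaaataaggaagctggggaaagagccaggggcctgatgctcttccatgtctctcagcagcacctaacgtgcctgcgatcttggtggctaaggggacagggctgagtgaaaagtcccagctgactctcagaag
The next window belongs to Clic5, the gene with the largest fall after NANCI shRNA among the 10, and the last ones to the start sites of Cav1, the gene with the largest fall after LL34 shRNA among them. None holds either core, so no letters are in capitals.
Clic5, chr17:44188322-44188621, plus strand: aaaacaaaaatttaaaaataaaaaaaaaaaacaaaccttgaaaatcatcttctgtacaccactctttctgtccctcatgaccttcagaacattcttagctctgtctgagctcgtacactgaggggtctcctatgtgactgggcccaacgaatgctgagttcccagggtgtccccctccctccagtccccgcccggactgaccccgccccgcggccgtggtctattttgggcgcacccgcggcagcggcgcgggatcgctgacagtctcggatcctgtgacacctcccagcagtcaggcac
Cav1, chr6:17306085-17306384, plus strand: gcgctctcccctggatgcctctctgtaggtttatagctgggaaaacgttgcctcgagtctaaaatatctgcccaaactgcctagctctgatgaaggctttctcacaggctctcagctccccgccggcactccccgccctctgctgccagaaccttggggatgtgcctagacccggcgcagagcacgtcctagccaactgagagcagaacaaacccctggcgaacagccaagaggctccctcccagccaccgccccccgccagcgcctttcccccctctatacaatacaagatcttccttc
Cav1, chr6:17307390-17307689, plus strand: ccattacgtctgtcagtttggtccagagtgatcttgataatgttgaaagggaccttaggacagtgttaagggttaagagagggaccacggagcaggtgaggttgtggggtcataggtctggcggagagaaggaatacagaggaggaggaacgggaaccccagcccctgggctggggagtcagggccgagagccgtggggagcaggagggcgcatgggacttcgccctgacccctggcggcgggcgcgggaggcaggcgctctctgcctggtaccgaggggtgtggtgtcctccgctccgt
GC content was 54.3% in the Clic5 window, 59.3% and 62.3% in the Cav1 windows, and 59.0% and 53.0% in the Hopx windows in the order shown, against a median of 52.7% over all windows. The first Hopx window held 21 CpG dinucleotides and the second held 8, against a median of 7 over all windows.

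Values are log2 signals as the authors deposited them, so a difference of 1 is a doubling. Array medians over all rows lay between 6.84 and 6.88 in the 6 arrays of the NANCI set and between 6.54 and 6.61 in the 6 arrays of the LL34 set, and the sets look as if they were normalized separately, so changes were taken within a set. Replicate arrays of a group correlated at 0.986 or higher over all rows. On all 3 arrays of the LL34 shRNA group 464 rows shared 1 value, and 212 rows did so in its scrambled group, but each of the 10 genes had 3 distinct values in every group. The rows of all 10 genes were above the median row. Sfta3-ps, listed with the synonym Nanci, was at 13.3% of its scrambled level after NANCI shRNA (adjusted p = 1.72e-07), and Nkx2-1 was at 50.1% (adjusted p = 4.95e-06). After LL34 shRNA Sfta3-ps was at 62.6% (adjusted p = 0.00284) and Nkx2-1 at 83.2% (adjusted p = 0.0327) of scrambled. The target of the LL34 shRNA was not found under that name in the annotation and was not analysed here.

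After NANCI shRNA, 8 of the 10 genes fell, none rose (0 also at an unadjusted p under 0.05 in limma), and Rtkn2 and Akap5 did not pass the test. Clic5 fell the furthest, to 27.1% of its scrambled level, followed by Hopx, Ager, Pdpn and Cav1 at between 53.2% and 59.0%, Clic3 at 66.9%, and Emp2 and Gprc5a near 84%. A gene is called lower or higher where the adjusted p of limma is under 0.05 over all 41345 rows. Of all rows 9.60% were called lower and 10.3% higher in this comparison, or 19.5% and 21.2% when the test was limited to rows at or above the median level, where all 10 genes lie. The median change of the 10 genes was -0.67, against 0.0042 over all named genes, of which 13.6% were called lower. All 3 shRNA arrays were below all 3 scrambled arrays for 8 of the 10 genes and above them for none, against 15.5% and 17.5% of all rows.

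**Figure D1:**
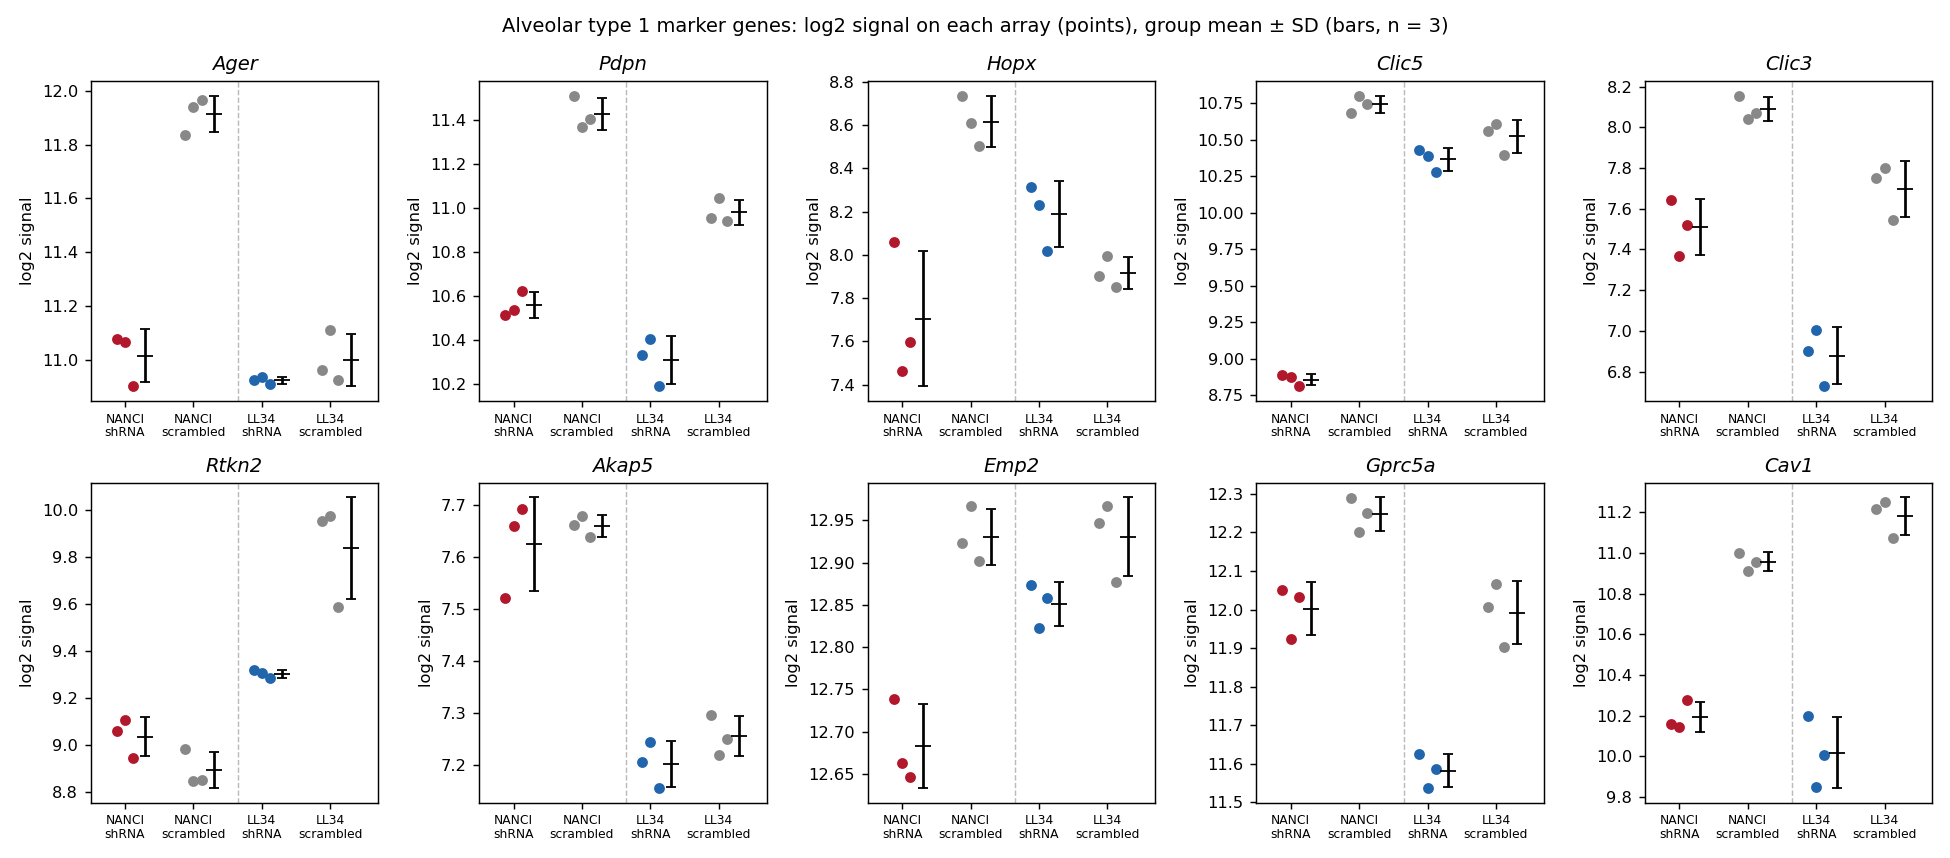
Log2 signal of the 10 genes on each array, 1 panel per gene, with the groups on the horizontal axis and a log2 axis that differs between panels. Points are arrays and bars are the group mean ± SD (n = 3), and the dashed line parts the NANCI set from the LL34 set. The NANCI shRNA points lie below all scrambled points of their set except for Rtkn2 and Akap5.

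Among the proteins of the cell surface, Ager is the receptor for advanced glycation end products, a pattern receptor held at the basal membrane of type 1 cells. Ager stood at 11.08, 11.07 and 10.90 on the NANCI shRNA arrays, against 11.84, 11.94 and 11.97 on their scrambled arrays. The groups did not overlap, and the change was -0.90 (SE 0.0696, adjusted p = 6.19e-06). Pdpn, or podoplanin, is a mucin-like glycoprotein of the apical membrane that binds ezrin family proteins. Its signal was 10.51, 10.54 and 10.62 with NANCI shRNA, against 11.51, 11.37 and 11.40 with scrambled shRNA. Every shRNA array was lower than every scrambled array, and the change was -0.87 (SE 0.0694, adjusted p = 7.77e-06).

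Gprc5a is an orphan G protein-coupled receptor first described as a gene induced by retinoic acid. It gave 12.05, 11.92 and 12.03 on the NANCI shRNA arrays, against 12.29, 12.20 and 12.25 on the scrambled arrays. The groups were close but apart, with a change of -0.24 (SE 0.0615, adjusted p = 0.0149). This call was lost without NANCI shRNA replicate 2 (adjusted p = 0.0628) and without scrambled replicate 1 of the NANCI set (adjusted p = 0.0589).

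Clic5 and Clic3 belong to the chloride intracellular channel family, whose members occur both free in the cytosol and at membranes, and Clic5 is known to associate with ezrin and the cortical actin network. Clic5 was at 8.89, 8.88 and 8.81 after NANCI shRNA, against 10.68, 10.80 and 10.75 after scrambled shRNA. The gap between the groups was many times the spread within either, and the change was -1.88 (SE 0.0694, adjusted p = 1.07e-07). Clic3 was at 7.64, 7.37 and 7.52 after NANCI shRNA, against 8.16, 8.04 and 8.07 after scrambled shRNA. Its shRNA arrays were all lower, and the change was -0.58 (SE 0.0967, adjusted p = 0.00118).

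Cav1, or caveolin-1, is the coat protein of caveolae, the small membrane pits that are dense in type 1 cells. It gave 10.16, 10.14 and 10.28 on the NANCI shRNA arrays, against 11.002, 10.91 and 10.96 on the scrambled arrays. The groups did not overlap, and the change was -0.76 (SE 0.0874, adjusted p = 8.61e-05). Emp2 is a tetraspan protein of the plasma membrane that is known to act on integrins and caveolins. Emp2 gave 12.74, 12.66 and 12.65 after NANCI shRNA, against 12.92, 12.97 and 12.90 after scrambled shRNA. The difference was small and without overlap, with a change of -0.25 (SE 0.0518, adjusted p = 0.0051).

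Hopx is a small homeodomain protein that does not bind DNA itself and acts through other transcription regulators. Its signal was 8.06, 7.46 and 7.60 with NANCI shRNA, against 8.74, 8.61 and 8.50 with scrambled shRNA. Replicate 1 of the shRNA group was the highest of its 3 arrays and still below every scrambled array, and the change was -0.91 (SE 0.138, adjusted p = 0.000622). The standard error of Hopx was the largest of the 10 genes.

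Rtkn2 is known as a marker of type 1 cells, and Akap5 is an anchoring protein that holds protein kinase A and calcineurin at the membrane. Rtkn2 was at 9.06, 9.10 and 8.94 after NANCI shRNA, against 8.98, 8.84 and 8.85 after scrambled shRNA. The groups overlapped, and the change of 0.14 had a 95% interval of -0.07 to 0.35 (adjusted p = 0.412). Akap5 was at 7.52, 7.66 and 7.69 after NANCI shRNA, against 7.66, 7.68 and 7.64 after scrambled shRNA. Here too the groups overlapped, and the change of -0.04 had a 95% interval of -0.16 to 0.09 (adjusted p = 0.793).

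After LL34 shRNA, 5 of the 10 genes fell, none rose (0 also at an unadjusted p under 0.05 in limma) and 5 did not pass the test. Cav1 fell the furthest, to 44.7% of its scrambled level, followed by Clic3 at 56.6%, Pdpn at 62.8%, Rtkn2 at 69.0% and Gprc5a at 75.3%. Of all rows 6.66% were called lower and 9.70% higher, or 14.0% and 20.9% among rows at or above the median level. The share of lower rows among all calls was 40.7% as deposited, 51.2% after quantile normalization over all 12 arrays and 49.8% with each array centred on its median. The median change of the 10 genes was -0.28, against -0.02 over all named genes, of which 10.3% were called lower. The LL34 shRNA arrays were all below the scrambled arrays for 6 of the 10 genes and all above for 1, against 12.3% and 18.8% of all rows.

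Cav1 gave 10.20, 9.85 and 10.01 on the LL34 shRNA arrays, against 11.22, 11.25 and 11.07 on their scrambled arrays. The groups were more than a doubling apart in their means, with a change of -1.16 (adjusted p = 1.06e-05). Clic3 gave 6.90, 7.00 and 6.73 with LL34 shRNA, against 7.75, 7.80 and 7.54 with scrambled shRNA. Each shRNA array was lower than each scrambled array, and the change was -0.82 (adjusted p = 0.000207). Pdpn gave 10.33, 10.40 and 10.19 with LL34 shRNA, against 10.95, 11.04 and 10.94 with scrambled shRNA. Again the groups did not overlap, and the change was -0.67 (adjusted p = 8.86e-05).

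Rtkn2 was at 9.32, 9.30 and 9.28 after LL34 shRNA, against 9.95, 9.97 and 9.59 after scrambled shRNA. Scrambled replicate 3 was the lowest of its group and still above all shRNA arrays, and the change was -0.53 (adjusted p = 0.00303). The other Rtkn2 rows were dimmer and their changes did not pass the test, at -0.21 (adjusted p = 0.138) and -0.06 (adjusted p = 0.699). Gprc5a was at 11.62, 11.54 and 11.59 after LL34 shRNA, against 12.01, 12.07 and 11.90 after scrambled shRNA. Its groups lay apart, and the change was -0.41 (adjusted p = 0.000957).

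Of the 5 genes without a call, Ager was at 10.92, 10.94 and 10.91 after LL34 shRNA, against 10.96, 11.11 and 10.93 after scrambled shRNA. The groups overlapped, and the change of -0.08 had a 95% interval of -0.23 to 0.08. Hopx was at 8.32, 8.23 and 8.02 after LL34 shRNA, against 7.90, 7.99 and 7.85 after scrambled shRNA. All 3 shRNA arrays were above the scrambled ones, but the change of 0.27 did not pass the test (95% interval -0.03 to 0.58, adjusted p = 0.247).

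Clic5 gave 10.43, 10.39 and 10.28 with LL34 shRNA, against 10.56, 10.61 and 10.40 with scrambled shRNA. The groups overlapped, with a change of -0.16 (adjusted p = 0.169), and the gene was called lower without scrambled replicate 3 of that set (-0.22, adjusted p = 0.047). Emp2 gave 12.87, 12.82 and 12.86 with LL34 shRNA, against 12.95, 12.97 and 12.88 with scrambled shRNA. Its shRNA arrays were lower by a small step, and the change of -0.08 did not pass the test (adjusted p = 0.392). Akap5 gave 7.21, 7.24 and 7.16 with LL34 shRNA, against 7.30, 7.22 and 7.25 with scrambled shRNA, and its change of -0.05 had a 95% interval of -0.18 to 0.07.

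**Figure D2:**
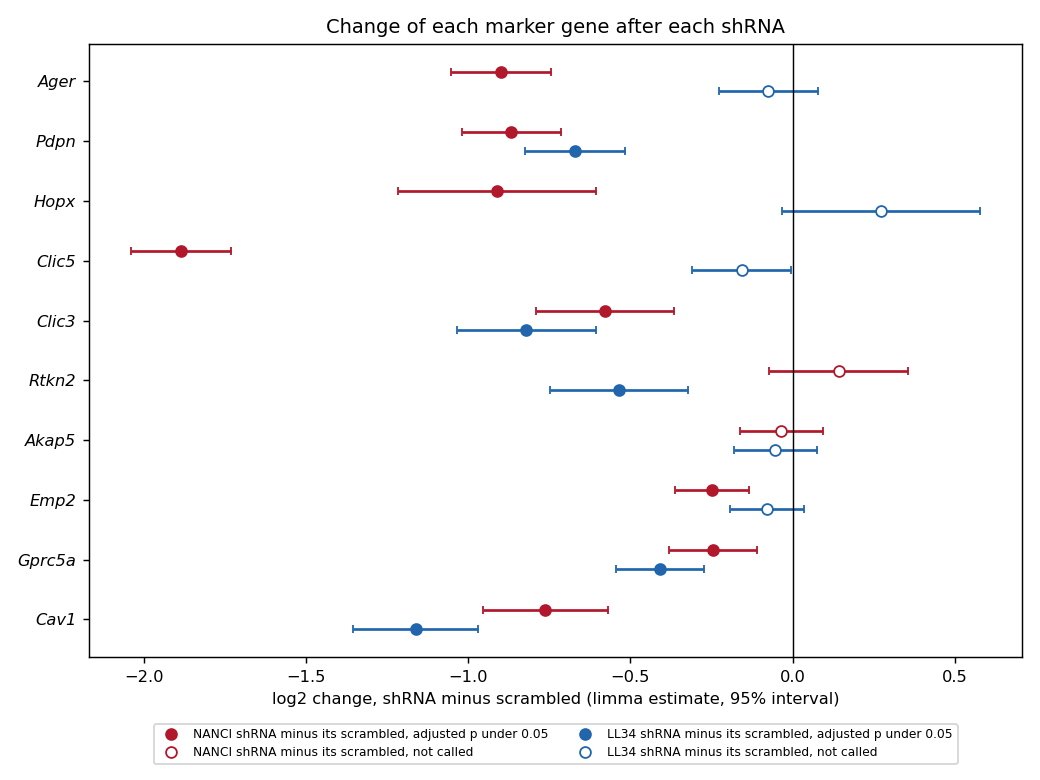
Log2 change of each of the 10 genes, shRNA minus its own scrambled shRNA, on the horizontal axis, with the 95% interval of the limma estimate as bars. Filled points have an adjusted p under 0.05 over all rows. Clic5 lies at -1.88 after NANCI shRNA and at -0.16 after LL34 shRNA, whereas Pdpn lies at -0.87 and -0.67.

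The genes called lower after each shRNA overlapped in part. Pdpn, Clic3, Gprc5a and Cav1 were called lower after both, which is 4 of the 8 genes lower after NANCI shRNA and 4 of the 5 lower after LL34 shRNA. Of all rows 1.92% were called lower after both, which is 19.9% of the rows lower after NANCI shRNA and 28.7% of those lower after LL34 shRNA. The difference itself, the NANCI change minus the LL34 change, was tested in the same fit, and 5 of the 10 genes passed. Of all rows 10.2% had a lower and 8.63% a higher NANCI change, or 21.3% and 18.1% among rows at or above the median level. Clic5 had a difference of -1.73 (SE 0.0982, adjusted p = 1.35e-06), Hopx of -1.18 (SE 0.196, adjusted p = 0.00133) and Ager of -0.82 (SE 0.0984, adjusted p = 0.000151), so their change was lower after NANCI shRNA than after LL34 shRNA. Rtkn2 had a difference of 0.68 (SE 0.137, adjusted p = 0.00474), and was called lower after LL34 shRNA and not after NANCI shRNA. In the other Rtkn2 rows the difference was 0.34 (adjusted p = 0.0751) and 0.14 (adjusted p = 0.427). Cav1 had a difference of 0.40 (SE 0.124, adjusted p = 0.0447), and this call was lost in 10 of the 12 fits that each left out 1 array (adjusted p between 0.0625 and 0.102). For Pdpn, Clic3, Emp2, Gprc5a and Akap5 the difference lay between -0.20 and 0.24 and did not pass the test.

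Over the 4 groups, the NANCI scrambled group had the highest mean for 8 of the 10 genes and the LL34 scrambled group for Rtkn2 and Cav1, or for 7 genes and for Rtkn2, Cav1 and Emp2 after quantile normalization over all arrays. The scrambled groups themselves stood apart for several genes, with no test since the sets look separately normalized. For Ager the LL34 scrambled group minus the NANCI scrambled group was -0.92 as deposited and -0.86 after quantile normalization over all arrays. Its mean of 11.02 after NANCI shRNA was thus close to 10.92 after LL34 shRNA and 10.999 after the scrambled shRNA of the LL34 set, and neighbours in that order overlapped. The same difference was -0.70 and -0.55 for Hopx, and 0.94 and 1.03 for Rtkn2. For Emp2 it was -0.00015 as deposited and 0.12 after quantile normalization. With all 6 scrambled arrays taken as 1 control group, which brings these differences between sets into the change, Ager (-0.44, adjusted p = 0.235), Hopx (-0.56, adjusted p = 0.105), Clic3 (-0.38, adjusted p = 0.0775) and Gprc5a (-0.12, adjusted p = 0.389) were no longer called lower after NANCI shRNA, nor Rtkn2 after LL34 shRNA (-0.06, adjusted p = 0.87).

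A further list held 26 genes that are also known in type 1 cells, all of them measured. This list and those below were chosen with earlier results of these data known. After NANCI shRNA 15 fell and none rose (1 at an unadjusted p under 0.05 in limma), with a median change of -0.62, and after LL34 shRNA 12 fell and 1 rose, with a median of -0.19. Over all named genes the median was 0.0042 and -0.02. Of the 26 genes 23 were above the median row. Of rows at or above that level 19.5% were called lower and 21.2% higher after NANCI shRNA, and 14.0% and 20.9% after LL34 shRNA. The furthest falls after NANCI shRNA were those of Col4a3 (-2.16), Ndnf (-2.01), Col4a4 (-1.71) and Scnn1g (-1.12). Col4a3 and Col4a4 encode chains of collagen IV, Ndnf a secreted neurotrophic factor and Scnn1g a subunit of the epithelial sodium channel. With all 6 scrambled arrays as 1 control group the Scnn1g call was lost (-0.57, adjusted p = 0.205). Lama3, a laminin chain, and Agrn, the matrix proteoglycan agrin, fell too (-0.59 and -0.67). After LL34 shRNA the furthest falls were the keratin Krt19 (-1.15), the growth factor binding protein Igfbp2 (-1.001), Gramd2 (-0.82) and the tetraspanin Tspan8 (-0.75).

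The water channel Aqp5, which faces the alveolar space in type 1 cells, changed by -0.60 after NANCI shRNA and by -0.61 after LL34 shRNA. Aqp5 was among 7 genes of the list that fell after both, with Timp3, Lmo7, Gramd2, Col4a3, Pxdc1 and Tspan8. That is 7 of the 15 genes lower after NANCI shRNA and 7 of the 12 lower after LL34 shRNA. Of all rows lower after NANCI shRNA 19.9% were lower after both, and of those lower after LL34 shRNA 28.7%. Both calls together were made for 1.92% of all rows. Scnn1g was the 1 gene that rose after LL34 shRNA (0.33, adjusted p = 0.0199), a call not made after quantile normalization over all arrays, nor without LL34 shRNA replicate 1 or 2 or scrambled replicate 1 or 3 of that set. The difference between the changes passed for 14 of the 26 genes, 11 with a lower and 3 with a higher NANCI change. The 3 were Krt19 (1.31), Igfbp2 (1.21) and Ahnak (0.50), each lower after LL34 shRNA and without a call after NANCI shRNA. Among rows at or above the median level 21.3% had a lower and 18.1% a higher NANCI change.

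**Figure D3:**
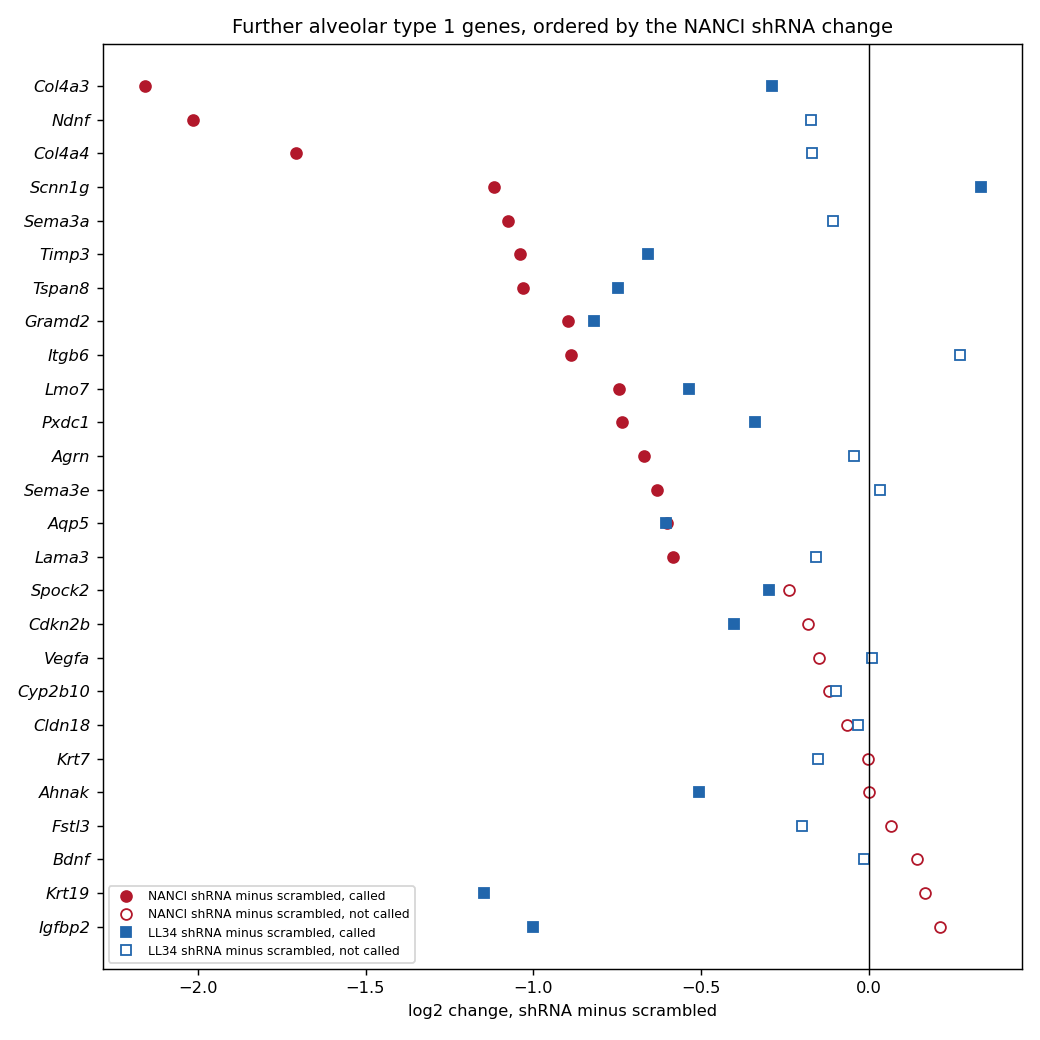
Log2 change, shRNA minus its own scrambled shRNA, of 26 further type 1 cell genes, ordered by the NANCI change. Filled marks have an adjusted p under 0.05 over all rows. Col4a3, Ndnf and Col4a4 lie at or below -1.71 after NANCI shRNA and above -0.30 after LL34 shRNA, whereas Krt19 and Igfbp2 lie at or below -1.001 after LL34 shRNA and at or above 0.17 after NANCI shRNA.

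Partners and relatives of the marker genes were read from lists as well. Their counts stand beside 9.60% of all rows called lower after NANCI shRNA and 6.66% after LL34 shRNA. Among rows at or above the median level these shares were 19.5% and 14.0%. Of 9 genes that build or trim caveolae with Cav1, 3 fell after NANCI shRNA (Cavin3 -1.28, Cavin2 -1.06, Cav2 -0.83) and 6 fell after LL34 shRNA, among them Ror1 (-1.27), Cavin2 (-1.21), Ehd2 (-0.91) and Pacsin2 (-0.60). Cavin1, a core coat component of caveolae, did not pass the test in either (0.21 and -0.11). Of the 3 relatives of Emp2, Emp3 and Emp1 fell after both shRNAs (-0.72 and -0.49 after NANCI, -0.52 and -0.67 after LL34), and Pmp22 fell after LL34 shRNA (-0.53). Among the other chloride intracellular channel genes Clic1 fell after NANCI shRNA (-0.47) and Clic4 after LL34 shRNA (-0.22), a call lost with a replicate block (adjusted p = 0.0556) and with all 6 scrambled arrays as control (-0.55, adjusted p = 0.0691). Of the 3 relatives of Gprc5a, none passed the test after NANCI shRNA (1 at an unadjusted p under 0.05 in limma), and Gprc5b fell after LL34 shRNA (-0.62).

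Several known ligands of Ager are small calcium-binding proteins. S100a6, a member of the S100 family, rose by 0.35 after NANCI shRNA (adjusted p = 0.0141) and changed by -1.15 after LL34 shRNA, and the difference passed the test (adjusted p = 1.26e-05). Its rise was not called without NANCI shRNA replicate 2 (adjusted p = 0.0579), with the 6 arrays of the set fitted alone (adjusted p = 0.0544) or with all 6 scrambled arrays as control (adjusted p = 0.231). Of the 8 ligand genes measured, App alone fell after NANCI shRNA (-0.29), and S100a11 (-0.51) and S100a4 (-0.43) also fell after LL34 shRNA. Over all rows 9.60% were called lower and 10.3% higher after NANCI shRNA, and 6.66% lower after LL34 shRNA. With all 6 scrambled arrays as control the calls of App (-0.16, adjusted p = 0.263) and S100a4 (-0.32, adjusted p = 0.103) were lost. S100a4 was below the median row.

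Of 8 measured partners of Akap5, Adcy5, an adenylyl cyclase, and Ppp3ca, a catalytic subunit of calcineurin, fell after both shRNAs (-0.91 and -0.46 after NANCI, -0.93 and -0.47 after LL34). Of all rows 1.92% were called lower after both. Among rows at or above the median level 19.5% were called lower and 21.2% higher after NANCI shRNA, and 14.0% lower after LL34 shRNA. The kinase A subunits Prkar2b (0.56) and Prkacb (0.26) rose after NANCI shRNA. Prkar2b was below the median row. Akap5 itself passed no test.

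Regulators tied to type 1 cells numbered 12 in the list, all measured, counting the TEAD, Klf and Lats genes beside Nkx2-1, Yap1, Wwtr1 and Gata6. After NANCI shRNA 5 fell and 2 rose, with a median of -0.07, and after LL34 shRNA 6 fell and 2 rose, with a median of -0.17. All 12 were above the median row. Among rows at or above the median level 19.5% were called lower and 21.2% higher after NANCI shRNA, and 14.0% and 20.9% after LL34 shRNA. Nkx2-1 changed by -0.998, Lats1 by -0.43, Tead4 by -0.41 and Gata6 by -0.29 after NANCI shRNA, and Klf6 (-0.57), Gata6 (-0.54) and Lats1 (-0.47) fell while Klf2 rose (0.51) after LL34 shRNA. The LL34 call of Lats1 was lost with all 6 scrambled arrays as control (-0.31, adjusted p = 0.107). Yap1 rose by 0.23 after NANCI shRNA (adjusted p = 0.00636), and Wwtr1 passed neither test (-0.04 and 0.14).

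Genes known as targets of YAP and TAZ changed differently after the shRNAs. Of 15 measured, 4 fell and 7 rose after NANCI shRNA (median 0.11), whereas 9 fell and none rose after LL34 shRNA (median -0.27, and 1 higher at an unadjusted p under 0.05 in limma). All 15 were above the median row. Of rows at or above that level 19.5% were called lower and 21.2% higher after NANCI shRNA, and 14.0% and 20.9% after LL34 shRNA. Ankrd1, a stress-inducible ankyrin repeat protein, changed by 0.81 after NANCI shRNA and by -0.70 after LL34 shRNA, and Ajuba, a LIM protein of cell junctions, by 0.59 and -0.66. Crim1 fell after both (-0.75 and -0.64). Wwc1, an upstream member of the Hippo pathway, fell after NANCI shRNA (-0.67), and the receptor kinase Axl fell after LL34 shRNA (-0.65). The difference between the changes passed for 9 of the 15 genes, of which 7 had a higher NANCI change. Among rows at or above the median level 18.1% had a higher and 21.3% a lower NANCI change.

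**Figure D4:**
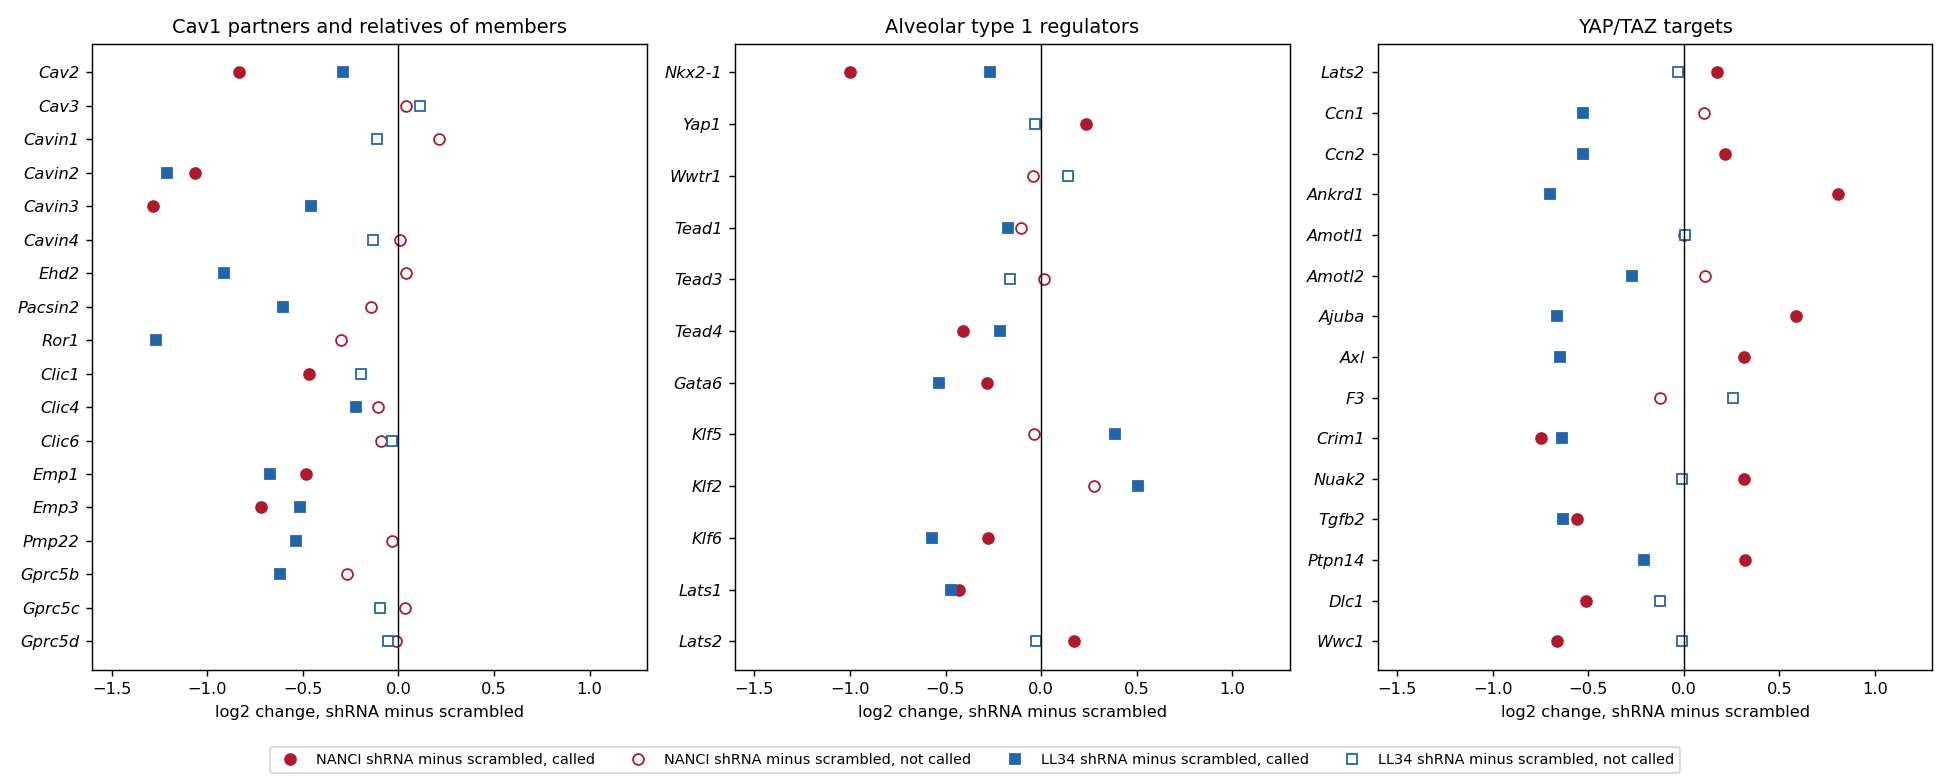
Log2 change, shRNA minus its own scrambled shRNA, of partners and relatives of the marker genes (left), regulators of type 1 cells (middle) and YAP/TAZ targets (right). Filled marks have an adjusted p under 0.05 over all rows. Ankrd1 and Ajuba lie to the right of 0 after NANCI shRNA and to the left of 0 after LL34 shRNA, and Cavin2 lies at or below -1.06 after both.

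Markers of other lung cell types were read beside these changes. Of 13 alveolar type 2 markers, 2 fell after NANCI shRNA (Cxcl15 -1.50, Abca3 -1.24) and Etv5 rose (0.60), and after LL34 shRNA Sftpc fell (-0.62) while Sftpb (0.62) and Etv5 (0.57) rose. With all 6 scrambled arrays as control these LL34 calls were lost (Sftpc -0.13, Sftpb 0.27 and Etv5 0.23, adjusted p of 0.354 or higher), and those of Sftpc and Etv5 also with the set fitted alone (adjusted p = 0.138 and 0.055). Over all rows 9.60% were called lower and 10.3% higher after NANCI shRNA, and 6.66% and 9.70% after LL34 shRNA. The median change of the 13 markers was -0.09 after NANCI shRNA and -0.06 after LL34 shRNA. The summed linear signal of the 13 markers lay between 3928 and 4368 after NANCI shRNA, against 5074 to 5695 with its scrambled shRNA, and between 4955 and 5400 after LL34 shRNA, against 4821 to 5973. Abca3 made up 16.8% to 17.8% of the sum after NANCI shRNA, against 30.5% to 32.9% with its scrambled shRNA. The defining type 2 marker Sftpc was above the median row, and 7 of the 13 markers, Lamp3 and Slc34a2 among them, were below it. Of 6 general epithelial markers, Cdh1 (-1.56), Krt8 (-0.43) and Esrp1 (-0.22) fell after NANCI shRNA, and after LL34 shRNA Krt8 fell (-0.67) and Epcam rose (0.33, a call not made after quantile normalization, adjusted p = 0.065, or with arrays centred on their medians, adjusted p = 0.0642). Their sum lay between 2372 and 2578 after NANCI shRNA, against 4102 to 4629, and between 3199 and 3389 after LL34 shRNA, against 4164 to 4691. Krt8 made up 54.8% to 60.0% of this sum after NANCI shRNA, against 40.0% to 45.9% with its scrambled shRNA. After LL34 shRNA its share was 50.2% to 52.0%, against 58.4% to 61.0%. The median change of the 6 markers was -0.06 after NANCI shRNA and -0.21 after LL34 shRNA. With all 6 scrambled arrays as control the LL34 calls of Krt8 (-0.42, adjusted p = 0.104) and Epcam (0.30, adjusted p = 0.0526) were lost. Of the 6 epithelial markers 2 were above the median row, and Epcam, a defining one, was below it.

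Of the markers of other cells, 5 of 10 mesenchymal, 1 of 10 endothelial, 1 of 8 leukocyte and 1 of 7 airway markers were above the median row. Their counts stand beside 9.60% of all rows called lower and 10.3% called higher after NANCI shRNA. After LL34 shRNA the shares were 6.66% and 9.70%. Tek, an endothelial receptor, was the 1 of 10 endothelial markers that passed and fell after both (-1.05 and -1.26). The endothelial sum lay between 924 and 942 after NANCI shRNA, against 1033 to 1105, and between 665 and 681 after LL34 shRNA, against 825 to 889. Tek's share was 9.92% to 14.8% after NANCI shRNA, against 20.6% to 24.3%, and 14.8% to 17.3% after LL34 shRNA, against 23.7% to 35.0%. Dcn (-0.91) was the 1 of 10 mesenchymal markers that passed after NANCI shRNA, where that sum lay between 4979 and 5393, against 8302 to 9541, and none passed after LL34 shRNA, with sums of 8191 to 8786, against 7967 to 8279. Dcn made up between 76.8% and 78.1% of the mesenchymal sum after NANCI shRNA, against 84.4% to 88.1% with its scrambled shRNA, and the median change of the 10 mesenchymal markers was -0.05.

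Cd68 (0.88) alone passed among 8 leukocyte markers after NANCI shRNA, with sums of 1184 to 1241, against 898 to 915, and none passed after LL34 shRNA, with sums of 723 to 726, against 804 to 808. Cd68 made up 51.5% to 56.1% of the sum after NANCI shRNA, against 36.6% to 42.4% with its scrambled shRNA. The median change of the 8 markers was 0.02 after NANCI shRNA. Muc5b (-0.98) alone passed among 7 airway markers after NANCI shRNA, with sums of 526 to 557, against 671 to 701, and none passed after LL34 shRNA, with sums of 531 to 582, against 547 to 616. Muc5b made up 22.9% to 27.5% of the sum after NANCI shRNA, against 37.7% to 41.3% with its scrambled shRNA. The median change of the 7 markers was -0.02 after NANCI shRNA. The defining endothelial markers Pecam1 and Cdh5, the leukocyte marker Ptprc and the airway marker Scgb1a1 were below the median row and did not pass in either comparison. At an unadjusted p under 0.05 in limma, 1 mesenchymal, 0 leukocyte and 2 airway markers were lower after LL34 shRNA. What part these markers have in the changes of the 10 genes was not tested.

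Likeness of pattern was measured by Pearson's r over the 12 arrays, each value centred on the mean of its set of 6, across 18744 named genes, leaving out placeholder names such as those starting with Gm or ending in Rik. The arrays fall into group clusters and share their normalization, so r is a description with no p. Among the 10 genes the pair most alike was Ager and Clic5 (r = 0.989), followed by Gprc5a and Cav1 (r = 0.979), and the least alike pair was Hopx and Rtkn2 (r = -0.37). Over the genes compared Kank2 was the most like Clic5 (r = 0.996), Osgep the most like Ager (r = 0.995), Nrp1 the most like Pdpn (r = 0.995) and Tgoln1 the most like Cav1 (r = 0.995). Kank2 changed by -1.45 after NANCI shRNA and by -0.13 after LL34 shRNA, and Nrp1 by -0.88 and -0.79. For the rest the nearest genes were Trp53bp2 for Clic3 (r = 0.988), Mindy1 for Emp2 (r = 0.987), Plxnb2 for Gprc5a (r = 0.982), Nsdhl for Rtkn2 (r = 0.979), Zswim8 for Hopx (r = 0.961) and F11 for Akap5 (r = 0.896).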

How the data were processed

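The deposited log2 values, 1 per row and array, were used as they stand. Per the submitters' processing notes the authors used oligo, RMA and limma. What versions, what order and what annotation build were used is not given in the sources used here. Rows were named from the platform's annotation table, which can be old, and 23328 of 23521 rows with 1 symbol were matched by Entrez number to RefSeq's mouse genes (assembly GRCm38.p6). The members and lists were chosen with earlier results of these data known, and 1 list is not reported here. Named genes were the 10 markers, Sfta3-ps and Nkx2-1, up to 4 genes per list and comparison with the largest change among those called, and the nearest gene by Pearson's r; other list genes printed were chosen after their values were seen. Tests used limma 3.58.1 in R 4.3.3 on 12 arrays with 4 group means, 8 residual and 2.84 prior degrees of freedom, and Benjamini-Hochberg adjustment over 41345 rows. Percent of scrambled is 2 to the power of the log2 change. Alternatives were other scalings, sets fitted alone, a replicate block, array weights, another prior, a filter on dim rows, other rows of a gene, 1 array left out and pooled scrambled arrays. The test was checked on simulated data. The number of arrays limits the precision.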

Additional observations from a re-analysis of the deposited data

Results flagged for a closer look

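For 5 of the 10 genes the NANCI change differed from the LL34 change by a test of the difference itself in limma. Of all rows 10.2% had a lower and 8.63% a higher NANCI change, or 21.3% and 18.1% among rows at or above the median level. The difference, NANCI change minus LL34 change, was -0.82 for Ager, -1.18 for Hopx, -1.73 for Clic5, 0.68 for Rtkn2 and 0.40 for Cav1. The Cav1 call was lost in 10 of the 12 fits that each left out 1 array. In the other Rtkn2 rows the difference did not pass the limma test (adjusted p = 0.0751 and 0.427). Ager, Hopx and Clic5 were lower in 3 of 3 NANCI shRNA arrays than in every scrambled array of their set. In the LL34 set Ager and Clic5 overlapped and Hopx was higher in 3 of 3 shRNA arrays. That Hopx change did not pass the limma test (adjusted p = 0.247). Of all rows 15.5% were below all scrambled arrays in the NANCI set, and 18.8% were above them in the LL34 set. The sets were run with separate scrambled arrays, so shRNA and set cannot be told apart.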

How the results depend on the processing

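The choice of control moved the most. With all 6 scrambled arrays as 1 control group, 4 of the 10 genes were called lower after NANCI shRNA, 9 of the 26 further type 1 genes were lower after NANCI shRNA and none (0) of them higher after LL34 shRNA, and 4309 rows in place of 6766 were called after LL34 shRNA; by its construction this setting adds the difference between sets. The numbers of the replicates did not pair the arrays (same-number correlations between -0.12 and 0.05), and with a replicate block 6906 rows were called after NANCI, 5257 after LL34 and 6320 for the difference, where 1 of the 10 genes was higher, since Cav1 was lost (0.40, adjusted p = 0.0861). Array weights, whose estimate stopped short of its tolerance, also left 1 gene higher (Cav1 0.38, adjusted p = 0.0571). Among the 26 genes, those higher after LL34 shRNA numbered 0 after quantile normalization and 2 among rows at or above the median level.

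Leaving out 1 array at a time gave between 6699 and 9551 rows called after NANCI shRNA, 4704 and 6670 after LL34 shRNA and 6519 and 8111 for the difference. Of the 10 genes 7 to 8 were then lower after NANCI shRNA, 5 to 6 after LL34 shRNA, 3 to 3 had a lower and 1 to 2 a higher difference. Of the 26 further genes 15 to 16 and 11 to 12 were lower, 0 to 2 were higher after LL34 shRNA, and 11 to 11 had a lower and 3 to 4 a higher difference. Over 22 settings, 560 of 586 gene results for the 10 genes kept their side of the threshold. Followed over the settings were the 10 genes and, in their own comparison, up to 4 genes per list with the largest change among those called. None (0) of these gene results changed sign where a call was made in either fit. Single values of other printed genes, and the differences of list genes, were not followed over the settings. Without a call the sign could change, as for Rtkn2 after NANCI shRNA (0.14, lowest -0.33) and Hopx after LL34 shRNA (0.27, lowest -0.08). Clic5 after LL34 shRNA was called with array weights (-0.20, adjusted p = 0.0361), and the Emp2 difference with a trended, robust prior (adjusted p = 0.0423). Among other named genes, the NANCI calls of Esrp1 (without NANCI shRNA replicate 1 or scrambled replicate 1 or 2) and Prkar2b (without shRNA replicate 3 or scrambled replicate 2) were lost. So were the LL34 calls of Sftpc (without any 1 of 8 arrays), Epcam (without LL34 shRNA replicate 1 or 3 or scrambled replicate 3) and S100a4 (shRNA replicate 3 or scrambled replicate 2). The Esrp1 call was lost too with the set fitted alone (adjusted p = 0.0963) and with a replicate block (adjusted p = 0.0743), Epcam with the set alone (adjusted p = 0.122) and S100a4 with the block (adjusted p = 0.0634). The cause was not tested.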
